A study of Arabidopsis thaliana with 24 samples.

Results

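*PRL* (PROLIFERA, *MCM7*, locus AT4G02060) was followed as 1 gene through the germination of *Arabidopsis thaliana* seed, in the wild type and in the mutant *Attim17-1*. It was found through the array's annotation, which assigned a single probe set, 255513_at, to this gene, out of 22746 probe sets tested and 13356 genes with a probe set of their own. The gene lies on chromosome 4, next to *STP7* and *MSH6* in the gene list of assembly TAIR10.1. Those neighbouring genes are not analysed here.

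MCM7 is a subunit of the ring-shaped MCM helicase. In G1 the origin recognition complex, CDC6 and CDT1 load this ring onto replication origins, a step called licensing, and in S phase the ring unwinds the DNA ahead of the polymerases. PRL was first known in Arabidopsis as a gene expressed in dividing cells and needed in gametophytes and embryos. In mature Arabidopsis seed most embryo cells rest in G1, and DNA replication resumes late in germination, close to radicle protrusion.

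RNA was measured on 24 single-colour Affymetrix arrays, 3 for each of 8 groups. The groups joined 2 genotypes, Col-0 wild type (WT) and *Attim17-1* in the Col-0 background (tim17-1 below), with 4 stages. These were dry seed (0 h), seed stratified for 48 h in the dark at 4 °C on MS medium (48 h S), and stratified seed that then spent 6 h (6 h SL) or 24 h (24 h SL) at 22 °C under continuous light. Dry seed had been stored for 15 days according to the design text and 14 days according to the treatment text, and the WT dry seed is called freshly harvested, the mutant's only dry. All samples were whole seed of 80 mg, so fewer cells with the transcript and less transcript per cell cannot be told apart. The labels do not state the nature of the mutant allele, and the *TIM17-1* transcript is not analysed here.

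The upper quartiles of the arrays were alike, between 235.8 and 259.4, but their medians rose with stage. Medians ran from 19.8 to 20.94 in dry seed and from 26.7 to 30.28 at 48 h S. At 6 h SL they ran from 31.38 to 33.18, and at 24 h SL from 35.48 to 36.57. *PRL* rose in the same stage order. With cyclic loess between arrays its stratification step was 0.446 log2 units in WT and 0.541 in tim17-1, against 0.659 and 0.654 without. Its whole rise was 3.42 and 3.28, against 3.6 and 3.45. The difference between 2 replicate arrays of a group (root mean square over probe sets) was 0.108 to 0.244 log2 units. The 5 measured seed markers were at high intensity in dry seed, from 1955 for *OLEO3* to 34680 for the late embryogenesis gene *M10* (WT means), and all 5 fell from 0 h to 24 h SL in both genotypes, a course over which 54.4% of all probe sets were called lower in WT and 53.6% in tim17-1. The meristem marker *CLV3* stayed at means of 7.62 to 9.84 in all groups, and the seed coat markers *BAN* and *AT3G50990* had means of 4.42 to 7.93. The 3 measured pollen markers were higher in WT than in tim17-1 dry seed (for *AT3G62710*, 111.9 against 20.83) and had means of 3.83 to 4.98 in every other group. The 3' minus 5' difference of the ubiquitin control was 0.28 to 0.748 log2 units in dry seed and 1.2 to 1.76 at later stages, so it moved with the earliest step of *PRL*. That of the GAPDH control was large at every stage and fell slightly along the course. Its means at 0 h, 48 h S, 6 h SL and 24 h SL were 3.04, 2.96, 2.83 and 2.73 in WT. In tim17-1 they were 3.11, 2.89, 2.76 and 2.73. The part of either control's difference in the result was not tested.

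In WT the *PRL* intensities were 5.33, 5.81 and 6.29 in dry seed. They were 15.21, 18.75 and 21.61 after stratification. After 6 h of light they read 116.71, 74.18 and 96.86, and after 24 h 253.95, 238.33 and 253.34. Each stage lay wholly above the one before it, and the widest scatter between replicate arrays was that at 6 h SL.

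The mutant gave nearly the same series. Its dry seed arrays read 6.14, 4.68 and 6.28, and its stratified seed arrays 13.62, 20.45 and 20.83. They read 94.97, 106.99 and 79.73 at 6 h SL, and 229.68, 195.65 and 238.39 at 24 h SL. Again no stage overlapped with the next, while at every stage the arrays of the 2 genotypes overlapped, at 24 h SL only just.

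**Figure D1:**
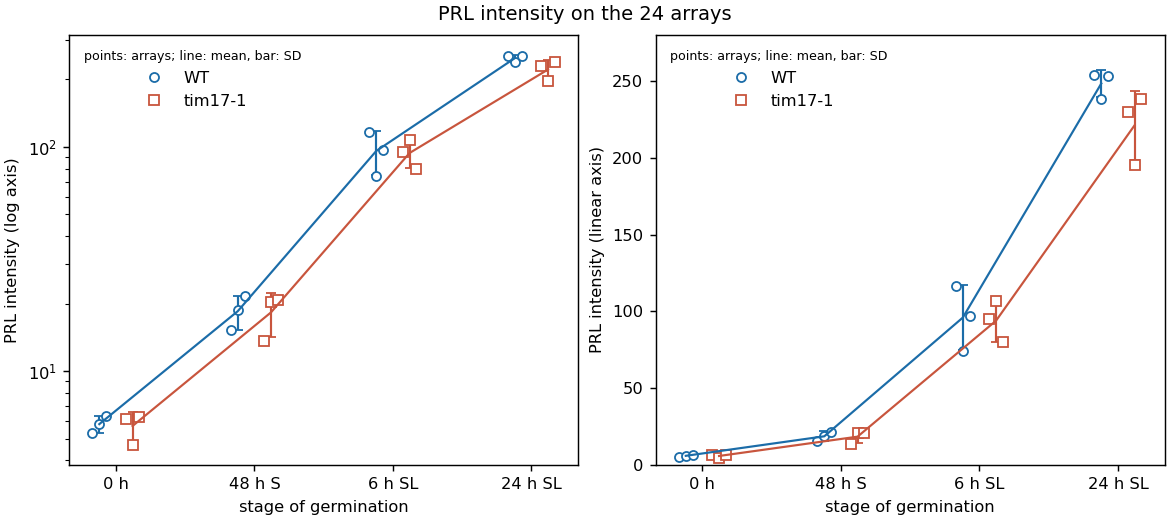
PRL intensity (left on a log axis, right on a linear axis) against stage of germination, with a point for each of 24 arrays and a line through the mean of 3 arrays, bars showing SD. Both genotypes climb at every step, from 4.68 to 6.29 in dry seed to 195.65 to 253.95 at 24 h SL, and the genotypes overlap at each stage.

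Ordered by mean, the 8 groups ran in pairs of equal stage. The lowest were tim17-1 dry seed (5.7 ± 0.886, SD, n = 3) and WT dry seed (5.81 ± 0.48). Next came tim17-1 (18.3 ± 4.06) and WT (18.52 ± 3.21) at 48 h S, then tim17-1 (93.9 ± 13.7) and WT (95.92 ± 21.3) at 6 h SL. The highest were tim17-1 (221.2 ± 22.6) and WT (248.5 ± 8.85) at 24 h SL. Arrays of neighbours of the same stage overlapped, and those of different stages did not. At 24 h SL the overlap was slight, since the highest tim17-1 array (238.39) only just passed the lowest WT array (238.33), and the gap between the means was larger than either SD.

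Pooled over the genotypes, the 6 arrays of each stage also stood clear of the stage before. The lowest value at 48 h S was 2.17 times the highest in dry seed, the corresponding ratio at 6 h SL was 3.43, and at 24 h SL it was 1.68. A rise at every step without overlap was found for 3.57% of all probe sets, 811 in number. By rank of signal, which is no measure of transcript amount between probe sets, *PRL* stood above 9.36% to 24.2% of probe sets in dry seed. It stood above 44.6% to 48.1% of them at 48 h S, 57.3% to 63.5% at 6 h SL and 71.2% to 75.6% at 24 h SL, a rank that does not depend on scale between arrays.

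No detection call came with the values, so whether dry seed held any *PRL* transcript above background is not known here. Changes are therefore given as differences of log2(intensity + 16), which damps the change of weak signals, with standard errors and adjusted p-values from a limma model over all 24 arrays. A probe set was called at an adjusted p under 0.05.

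In WT, *PRL* rose in each of the 3 steps. During stratification in the cold and dark it rose by 0.66 ± 0.122 (limma, adjusted p = 0.00011), where 28.4% of all probe sets were called higher. On this scale 20.9% of all probe sets rose more. In the 6 h after the move to light and warmth it rose by 1.68 ± 0.122 (adjusted p = 2.8e-09), beside 19.4% called higher, and only 1.33% of all probe sets had a larger rise. Between 6 h and 24 h of light it rose by 1.26 ± 0.122 (adjusted p = 7.38e-08), beside 20.5% called higher, with 5.03% rising more. From dry seed to 24 h SL the rise was 3.60 ± 0.122 (adjusted p = 4.22e-15), beside 31.3% called higher.

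In tim17-1, *PRL* rose by 0.65 ± 0.122 during stratification (limma, adjusted p = 0.000124), where 26.8% of all probe sets were called higher. It then rose by 1.68 ± 0.122 to 6 h SL (adjusted p = 3.1e-09), beside 18.9% called higher, and 1.24% of all probe sets rose more. The last step was 1.11 ± 0.122 (adjusted p = 3.85e-07), beside 20.7% called higher. The whole rise was 3.45 ± 0.122 (adjusted p = 8.34e-15), beside 30.3% called higher. The move from the cold and dark to light and warmth thus held the largest step of *PRL* on this scale in both genotypes, although the 3 steps were not tested against each other.

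**Figure D2:**
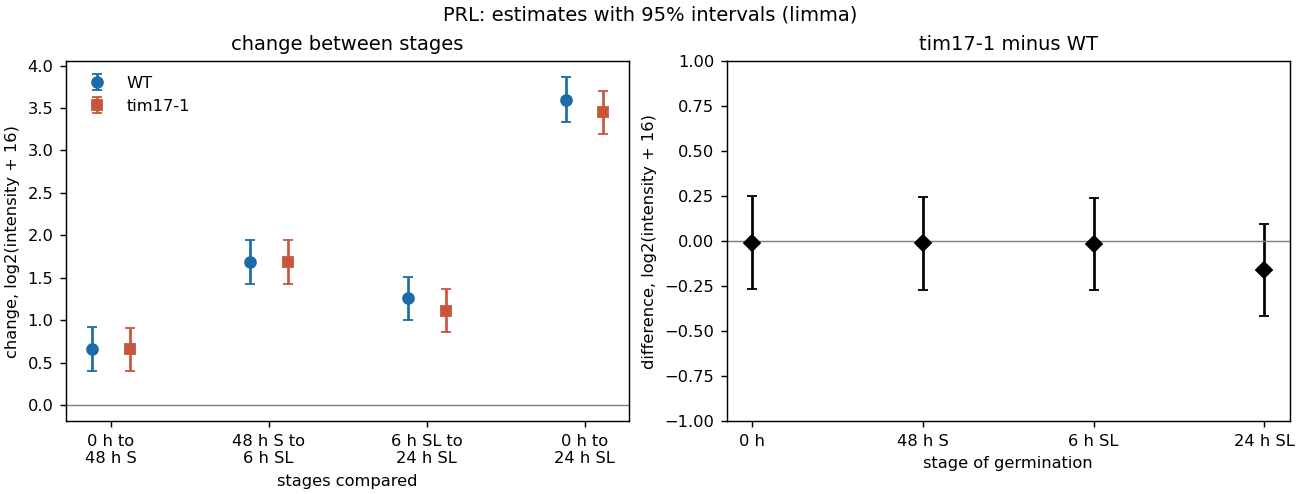
Left, change of PRL in log2(intensity + 16) over each step and over the whole course, right, difference between tim17-1 and WT at each stage, with 95% intervals from the limma fit (n = 3 arrays per group). The step from 48 h S to 6 h SL is 1.68 in both genotypes, and every interval on the right contains 0.

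On the plain intensity scale the order of the steps was different. WT gained 12.7 units during stratification, 77.4 in the following 6 h of light and 153 by 24 h, or 5.24%, 31.9% and 62.9% of its whole gain. In tim17-1 the gains were 12.6, 75.6 and 127 units, or 5.85%, 35.1% and 59.1%. At 6 h SL the WT mean was 38.6% of its level at 24 h SL, and that of tim17-1 was 42.4%. So most of the increase in signal came after 6 h of light, while the largest relative change came before it.

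As ratios of mean intensity without any offset, *PRL* changed 3.19-fold, 5.18-fold and 2.59-fold over the 3 steps in WT, and 42.8-fold in all. The ratios in tim17-1 were 3.21, 5.13 and 2.36, and 38.8 in all. The ratios that start from dry seed rest on values near the bottom of the array and depend on how the submitters treated background. Without an offset the stratification step became 1.66 log2 units in WT and 1.67 in tim17-1, and with log2(value + 64) it became 0.24 in each. The call stayed under all of these settings, but the size of the stratification step, and whether it was smaller or larger than the last step, hung on the offset. With log2(value + 64) the last step in WT (0.975) exceeded that to 6 h SL (0.947).

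**Figure D3:**
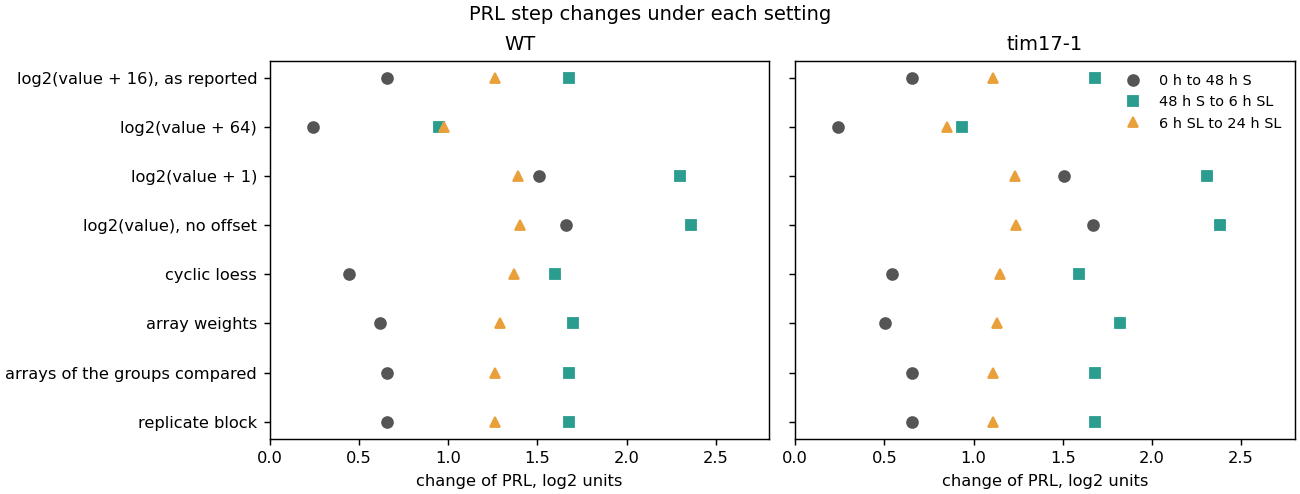
Change of PRL in log2 units over each of the 3 steps (symbols) in WT and tim17-1 under 8 settings of the analysis. The step from 0 h to 48 h S runs from 0.24 with an offset of 64 to 1.66 or 1.67 with none, that from 48 h S to 6 h SL from 0.947 to 2.36 in WT and from 0.938 to 2.38 in tim17-1, and the last step moves less.

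The comparison of genotypes asked whether *PRL* stood at another level in tim17-1 at any stage. No stage passed the test. At 0 h the difference of tim17-1 from WT was -0.01 log2 units (95% interval -0.26 to 0.25; limma, adjusted p = 1), where 3.65% of all probe sets were called in either direction. At 48 h S it was -0.01 (-0.27 to 0.24; adjusted p = 0.997), beside 1.23% called. At 6 h SL it was -0.02 (-0.27 to 0.24; adjusted p = 1), beside 1.28% called. At 24 h SL it was -0.16 (-0.42 to 0.10; adjusted p = 0.772), beside 4.32% called. On the log2(intensity + 16) scale the intervals leave room for a difference of up to 0.27 units at the 3 earlier stages. At 24 h SL they leave room for a deficit of up to 0.42. The offset damps weak signals, so as ratios of plain intensity the room is wider, most of all at 0 h and then at 48 h S. These intervals rest on a spread shared by all groups, not on that of each stage. The log2 SD of *PRL* was 0.0318 in WT and 0.0596 in tim17-1 at 0 h, but 0.28 and 0.182 at 6 h SL. By this spread alone, and on the scale with the offset, the room is thus probably overstated at 0 h and understated at 6 h SL.

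The steps themselves did not pass a test of difference between genotypes either. The change from 0 h to 48 h S differed by -0.0044 (95% interval -0.37 to 0.36; limma, adjusted p = 0.994), with 2.68% of all probe sets called. That from 48 h S to 6 h SL differed by -0.0037 (-0.37 to 0.36; adjusted p = 1), with 0.717% called. That from 6 h SL to 24 h SL differed by -0.15 (-0.51 to 0.22; adjusted p = 1), with 1.53% called. Over the whole course the difference was -0.15 (-0.52 to 0.21; adjusted p = 0.806), with 3.43% called. These intervals are wide and rest on the same shared spread. A p that misses the threshold does not show that the genotypes rose alike.

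Of the 52 other licensing and replication fork genes listed, 6 had a probe set with 1 gene. *PRL* was the only listed member of the MCM ring matched to such a probe set. That does not show whether the array holds probes for its partner subunits, which are not analysed here. From 0 h to 24 h SL in WT, 3 of the 6 rose, with 1 fall (*AT5G26680*), where 31.3% of all probe sets were called higher and 54.4% lower. The median change of the 6 was 0.37, against -0.05 over all probe sets. In tim17-1, 3 rose and 2 fell (*PSF2* and *AT5G26680*), where 30.3% of all probe sets were called higher and 53.6% lower, and the median was 0.24 against -0.04 over all.

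The polymerase α and primase genes also climbed towards 24 h SL, but neither had the step pattern of *PRL* in both genotypes. *POLA3*, a DNA primase subunit gene, read 14.46, 14.96 and 25.37 in WT dry seed and 187.92, 222.72 and 202.24 at 24 h SL. It rose by 0.57 ± 0.135, 1.40 ± 0.135 and 0.73 ± 0.135 over the 3 steps in WT (limma, adjusted p = 0.00118, 1.17e-07 and 0.000182). In tim17-1 it rose by 0.90, 0.68 and 0.80, so there the step to 6 h SL, the largest of *PRL*, was its smallest. Apart from *PRL* it was the only gene of the replication and mitosis lists that rose at each step without overlap between stages. *ICU2*, the catalytic subunit of DNA polymerase α, went from 10.01 ± 5.12 to 60.54 ± 8.56 in WT and from 9.19 ± 2.49 to 56.99 ± 4.13 in tim17-1 (SD, n = 3). Its stratification step did not pass (0.12 in WT, 0.23 in tim17-1), and it rose by 0.52 and 0.51 to 6 h SL and by 0.93 and 0.79 to 24 h SL.

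Among the other licensing and fork genes, *PSF2*, *AT5G26680* and *AT1G07270* did not follow *PRL*. *PSF2*, a subunit of the GINS complex that joins the MCM ring at active forks, was already at 138.8 ± 23.4 in WT dry seed (SD, n = 3). It rose by 0.64 ± 0.105 during stratification in WT (limma, adjusted p = 3.39e-05) and fell between 6 h and 24 h of light in both genotypes (-0.52 and -0.67). *AT5G26680*, also listed as a fork gene, fell in that last step by 1.21 on the log2 scale in WT and by 1.06 in tim17-1. In that step 25.1% of all probe sets were called lower in WT and 22.5% in tim17-1. *AT1G07270*, listed as a licensing gene, stayed between means of 6.31 and 7.26 in all 8 groups. That is near the dry seed means of *PRL* (5.81 and 5.7), so whether its transcript was detected at all is not known here.

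*AT5G26680* was the only one of the 6 licensing and fork genes called between genotypes. It was higher in tim17-1 dry seed (0.69 ± 0.167, limma, adjusted p = 0.025), where 1.32% of all probe sets were called higher. Its arrays read 168.59, 146.33 and 169.2 in WT and 284.11, 352.98 and 196.34 in tim17-1. That call was lost without WT 0 h replicate 2 (0.63) and without tim17-1 0 h replicate 1 (0.66) or 2 (0.51), with array weights (adjusted p = 0.191) and with the compared groups alone (adjusted p = 0.49). *POLA3* was not called, although its arrays at 48 h S did not overlap. They lay between 30.16 and 38.04 in WT and between 52.17 and 56.19 in tim17-1.

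*TOPII* and *HTR12* left a low level at 24 h SL. *TOPII*, a topoisomerase II gene in the list of licensing and fork genes, stood at 5.81 to 6.61 on every array up to 6 h SL. At 24 h SL it read 33.89, 6.26 and 27.43 in WT and 17.4, 15.17 and 13.66 in tim17-1, so WT replicate 2 stayed at the level of earlier stages. It rose from 0 h by 0.71 ± 0.176 in WT (limma, adjusted p = 0.00133) and 0.49 ± 0.176 in tim17-1 (adjusted p = 0.0159), and the latter call was lost without tim17-1 24 h SL replicate 1 (0.45). The WT call was lost when only the compared groups entered the fit (adjusted p = 0.0968). *HTR12*, the centromeric histone H3, rose from 10.19 ± 0.949 to 23.48 ± 1.58 in WT and from 8.65 ± 0.147 to 18.29 ± 3.63 in tim17-1 (SD, n = 3). Its change was 0.59 ± 0.0506 in WT (adjusted p = 4.55e-09) and 0.47 ± 0.0506 in tim17-1 (adjusted p = 1.19e-07).

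*HTB2*, a histone H2B gene, was high throughout and rose by 1.26 ± 0.133 in WT (limma, adjusted p = 9.67e-08) and 1.27 ± 0.133 in tim17-1 from 0 h to 24 h SL. Its largest step was that from 6 h SL to 24 h SL (1.00 and 0.70). It was among 3 genes found outside the lists by a search of gene names for replication, cyclin and histone words. The others were *HTR12* and the male gamete histone gene *MGH3* (4.83 to 7.61 in group means), so the search found histone genes only. *HTR12* was lower in tim17-1 at 24 h SL by a log2 change of -0.21 ± 0.0506 (adjusted p = 0.0229). Leaving out replicate 2 or 3 of WT at 24 h SL (-0.21 and -0.18), or replicate 2 or 3 of tim17-1 (-0.20 and -0.13), ended that call, as did a fit without dry seed (adjusted p = 0.0565) or of the compared groups alone (adjusted p = 0.489).

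The mitotic Aurora kinase gene *AUR2* took another path. It read 463.85, 527.15 and 456.7 in WT dry seed and 7.25, 5.24 and 5.78 after stratification. That was a change of -4.49 ± 0.0886 (limma, adjusted p = 4.27e-18) in WT and -4.55 in tim17-1, in a step where 44.7% and 32.9% of all probe sets were called lower. From there it rose with *PRL*, by 1.10 and 0.94 over the light steps in WT and by 1.13 and 0.75 in tim17-1, to 74.88 ± 6.95 and 62.46 ± 1.61 (SD, n = 3). *AUR1*, its close homolog, lay between 3.26 and 7.53 on all arrays. From 0 h to 24 h SL it was called higher in tim17-1 (0.11 ± 0.046, limma, adjusted p = 0.03), while the change in WT was 0.09 (adjusted p = 0.082). The tim17-1 call was lost with array weights (0.10), with the compared groups alone, and without tim17-1 0 h replicate 1 (0.11), 2 (0.11) or 3 (0.12) or tim17-1 24 h SL replicate 2 (0.04). The WT change was called with cyclic loess (0.18), with no offset (0.40), without WT 24 h SL replicate 1 (0.14) and without tim17-1 24 h SL replicate 2 (0.09). The difference between genotypes in that change was 0.03 and did not pass.

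**Figure D4:**
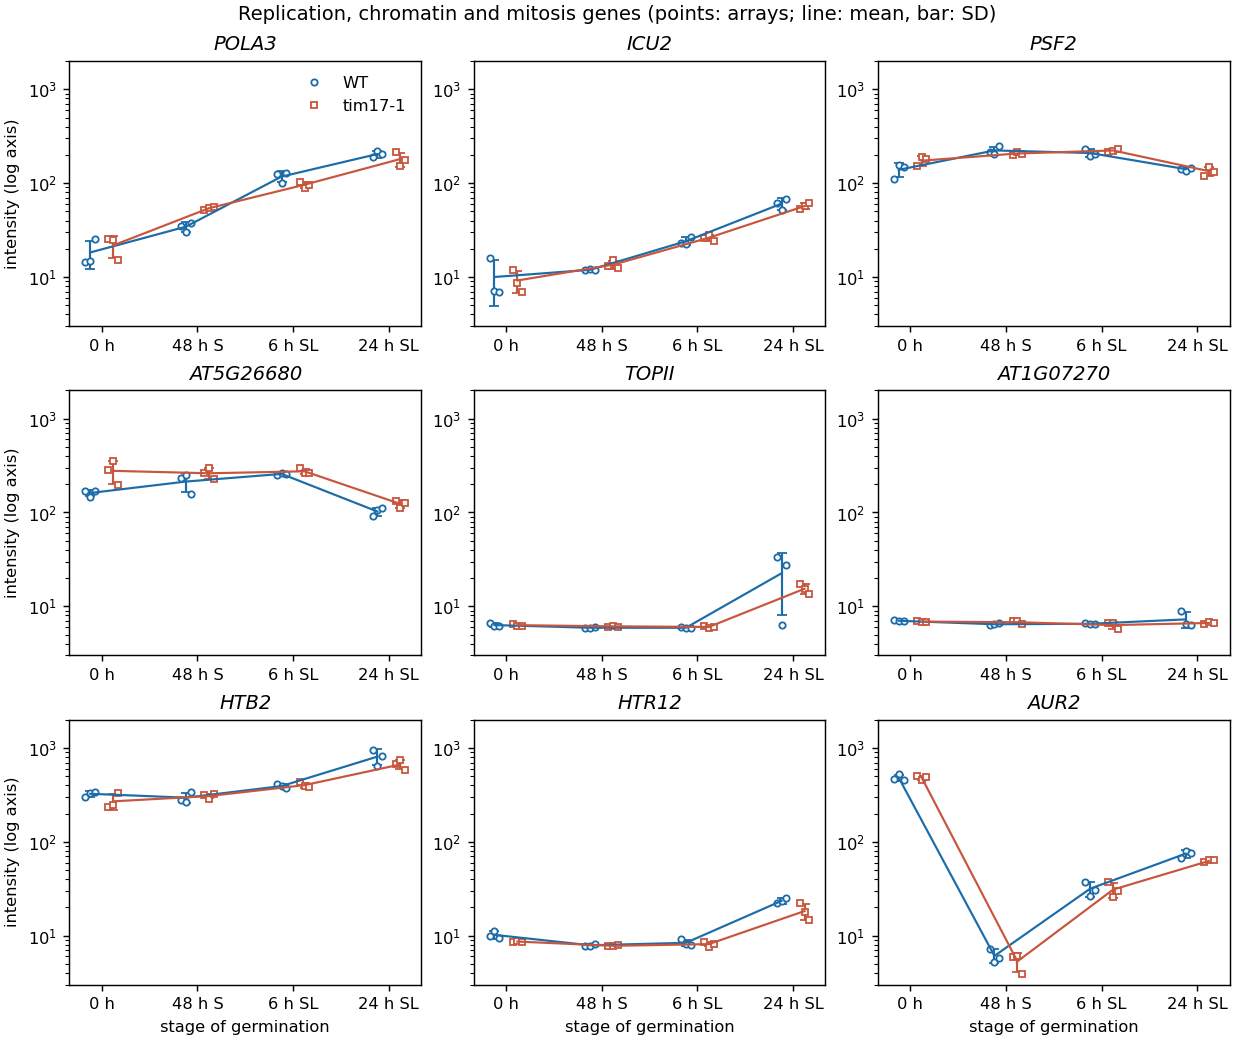
Intensity on a log axis against stage for 9 replication, chromatin and mitosis genes, with a point for each array, lines through the means of 3 arrays and bars showing SD. POLA3 and ICU2 climb towards 24 h SL, TOPII and HTR12 leave their low level at 24 h SL, and AUR2 drops from 482.6 to 6.09 in WT during stratification before it climbs again.

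The 8 genes whose log2 values over the 24 arrays were most like those of *PRL* were *SBT1.3*, *AT1G78060*, *AT5G13100*, *WLIM1*, *AT5G54970*, *AT5G16870*, *AT1G67360* and *AT5G19370*. Their Pearson correlations ran from 0.989 to 0.992 and their Spearman correlations from 0.917 to 0.962, among 5842 genes whose group means spanned at least 1 log2 unit. The 24 arrays share 4 stages, so these values describe likeness in the course of germination, with points that are not independent. All 8 rose at every step without overlap between stages, a course that their choice by correlation favours. With log2(value + 1), with log2(value + 64) or without WT 0 h replicate 2, 5 of these 8 stayed among the 8 nearest, and 4 did with no offset.

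Alike in course, these genes differed in size. *SBT1.3*, a subtilase gene, went from 17.2 ± 5.95 to 3257 ± 163 in WT (SD, n = 3), a rise of 6.64 ± 0.113 log2 units. *AT1G78060* rose by 6.53 and *AT5G13100* by 5.57 over the same course. *AT5G16870* rose by 2.97 in WT, with mean intensities of 7.16, 22.31, 96.31 and 165.8 at the 4 stages. *AT5G19370* changed least, from 685.9 ± 39.6 to 2311 ± 21.8, and with cyclic loess its stratification step turned from 0.48 to -0.05 in WT and from 0.43 to -0.07 in tim17-1.

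*WLIM1*, a LIM domain protein gene, was the only one of the 8 with a step that passed the test of difference between genotypes (-0.64 ± 0.114 for stratification, limma, adjusted p = 0.0036). At 48 h S it read 27.04, 31.05 and 36.03 in WT and 14.94, 13.09 and 12.64 in tim17-1, with no overlap (-0.68 ± 0.0804, limma, adjusted p = 0.000273). Of all probe sets, 2.68% were called for a genotype difference in the stratification step, and 0.87% as lower in tim17-1 at 48 h S. The difference in the step did not pass with log2(value + 64) (-0.29) or array weights (-0.52). By 24 h SL the 2 genotypes stood at 699.8 ± 9.8 and 714.6 ± 39.5 (SD, n = 3). For *PRL* the same difference at 48 h S was -0.01 and did not pass.

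Single stages of 3 others among the 8 were called lower in tim17-1, with each gene looked at over all 4 stages. Of all probe sets, 2.33% were called lower in tim17-1 at 0 h, 0.769% at 6 h SL and 2.73% at 24 h SL. *AT5G54970* read 500.72, 457.58 and 536.15 in WT and 348.87, 387.95 and 361.06 in tim17-1 at 24 h SL (-0.43, limma, adjusted p = 0.00816), the stage at which the difference for *PRL* was -0.16. *SBT1.3* read 18.14, 10.83 and 22.62 against 6.52, 6.35 and 9.25 in dry seed (-0.49, adjusted p = 0.0182). *AT5G13100* read 253.78, 223.65 and 249.36 against 188.99, 162.44 and 186.67 at 6 h SL (-0.40, adjusted p = 0.0291). Groups did not overlap in any of the 3. The call on *SBT1.3* ended without WT 0 h replicate 1 (-0.46) or 3 (-0.38) or tim17-1 0 h replicate 2 (-0.46), and that on *AT5G13100* without WT 6 h SL replicate 1 (-0.37) or 3 (-0.38) or any 1 of the 3 tim17-1 arrays (-0.44, -0.34 and -0.43). With the compared groups alone none of the 3 calls held (adjusted p = 0.194 for *AT5G54970*, 0.464 for *SBT1.3* and 0.224 for *AT5G13100*). That on *AT5G54970* also ended with log2(value + 1) (adjusted p = 0.0501) or no offset (0.0601), and that on *SBT1.3* with log2(value + 64) (0.14) or array weights (0.386). That on *AT5G13100* also ended with log2(value + 1) (0.223), no offset (0.295), cyclic loess (0.0762) or no dry seed (0.0709).

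The 4 genes most opposite to *PRL* were *AT1G17130*, *AT5G51570*, *AT3G15180* and *AT4G33980*, with Pearson correlations from -0.993 to -0.992. All 4 fell at every step without overlap between stages, as did 3.36% of all probe sets (764), and their choice by correlation favours such a course. *AT4G33980* fell most, from 4847 ± 612 in WT dry seed to 54.33 ± 7.77 at 24 h SL (SD, n = 3). In tim17-1 it ended at 104.6 ± 18.5, higher than WT by 0.77 ± 0.128 (limma, adjusted p = 0.00111), a call lost when only the compared groups entered the fit (adjusted p = 0.207). *AT5G51570* was also called higher in tim17-1, at 6 h SL (0.227), a call lost under 8 of 33 other settings. Over all probe sets 1.59% were called higher in tim17-1 at 24 h SL and 0.51% at 6 h SL.

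**Figure D5:**
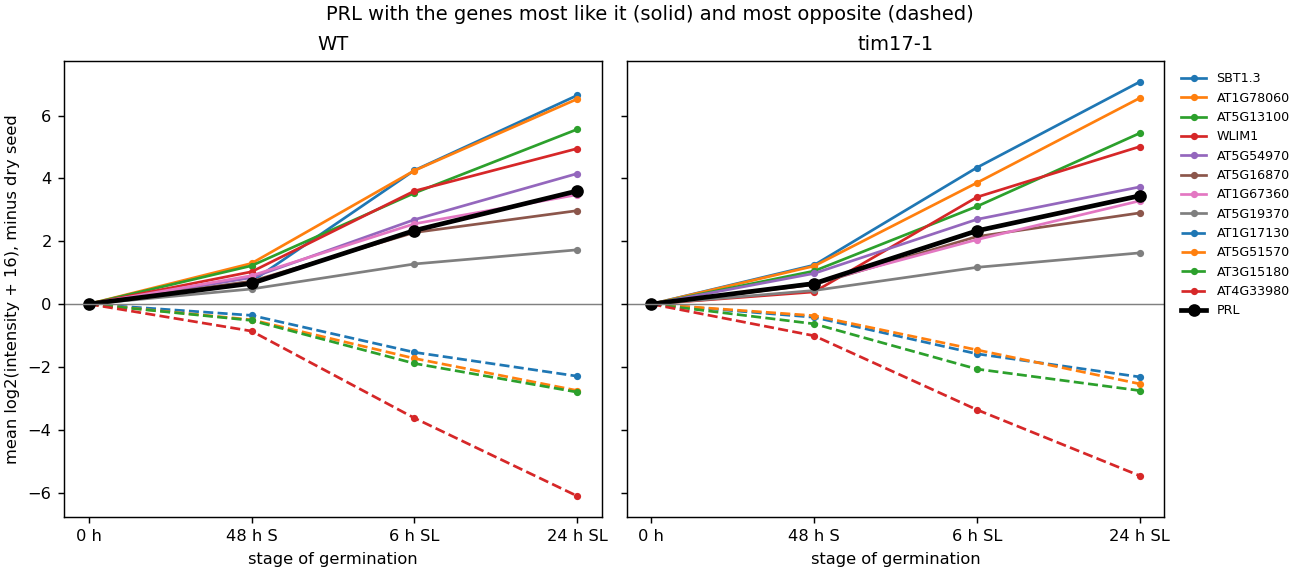
Mean log2(intensity + 16) of 3 arrays at each stage, less its value in dry seed, for PRL (black), the 8 genes most like it (solid) and the 4 most opposite (dashed), in WT and tim17-1. PRL ends at 3.60 in WT and 3.45 in tim17-1, within the range of the 8 genes, and WLIM1 lags at 48 h S in tim17-1.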

How the data were processed

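Total RNA of whole seed was measured on 24 single-colour Affymetrix arrays, 3 for each of 8 groups. The authors deposited 1 linear intensity per probe set and array. MAS5, RMA and Partek are named in the submitters' processing notes, with no role given, so the background and scaling steps behind the intensity values are not given in the sources used here. Of 22810 probe sets, 64 controls were left out, and 13513 had 1 gene in the platform annotation, 503 several and 8730 none listed.

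Intensities were taken as log2(value + 16). Limma 3.58.1 in R 4.3.3 fitted 8 group means to all 24 arrays (16 residual degrees of freedom), and p-values were adjusted by Benjamini-Hochberg over 22746 probe sets within each of 16 contrasts, at a threshold of 0.05. The fit was tested on simulated data with few changed probe sets and independent noise. In these data up to 85.8% of probe sets were called in a contrast, so that test cannot vouch for the calls here. With 3 arrays a group, 0.1 is the smallest two-sided p of an exact permutation test, which was not used. The labels do not say whether replicates were separate seed lots, so the spread behind the p-values may be technical.

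Genes named were *PRL*, every measured gene of 8 lists (20 of 165 listed) or found by replication, cyclin or histone words in its name, and the 8 most like and 4 most opposite by Pearson's r. The gene and the lists were chosen with earlier results of these data known. Offsets of 1, 64 and none, cyclic loess, array weights, a filter on low values, the compared groups alone, a replicate block, no dry seed and each array left out were tried. No sequence was used here.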

Additional observations from a re-analysis of the deposited data

Results flagged for a closer look

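*WLIM1*, whose course was among the 8 most like that of *PRL*, rose less during stratification in tim17-1 than in WT. The rise was 1.03 in WT and 0.39 in tim17-1 on the log2(intensity + 16) scale, a difference of -0.64 ± 0.114 (limma interaction term, adjusted p = 0.0036). All 3 tim17-1 arrays at 48 h S lay below all 3 WT arrays. With log2(value + 64) the difference was -0.29 and with array weights -0.52, and neither passed. The same difference for *PRL* was -0.0044 and did not pass.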

How the results depend on the processing

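The 8 rises of *PRL* kept their direction and stayed called under every alternative run. Leaving out 1 array at a time, the rise from 0 h to 24 h SL ranged from 3.58 to 3.63 in WT and from 3.39 to 3.53 in tim17-1, and over the other settings from 2.16 to 5.42 and from 2.03 to 5.29. No difference between genotypes in *PRL* was called under any setting, and those near 0 changed sign. For 0 h to 48 h S the difference of changes became 0.0032 with log2(value + 1), 0.0077 with no offset (chosen after seeing the data, as was leaving out dry seed) and 0.0952 with cyclic loess, and -0.0751 to 0.0979 with an array left out. For 48 h S to 6 h SL it became 0.0102 with log2(value + 1), 0.0124 with no offset and 0.115 with array weights, and -0.151 to 0.128 with an array left out. For 6 h SL to 24 h SL it ran from -0.277 to 0.00171, and for 0 h to 24 h SL from -0.206 to -0.0732. The differences at single stages ran from -0.0273 to 0.0264 at 0 h, -0.0829 to 0.09 at 48 h S, -0.163 to 0.116 at 6 h SL and -0.214 to -0.081 at 24 h SL, and cyclic loess gave 0.0251 at 48 h S and 0.0213 at 6 h SL. The change from 0 h to 24 h SL became 0.0265 for *AT1G07270* and 0.00591 for *MGH3* in tim17-1 with cyclic loess. In WT it ran from -0.0369 (without WT 24 h SL replicate 1, adjusted p = 0.0371) to 0.0419 for *AT1G07270* and from -0.0998 (without WT 0 h replicate 1) to 0.107 for *PSF2*. The stratification step of *AT5G19370* became -0.0464 in WT and -0.0714 in tim17-1 with cyclic loess. The cause was not tested. Of 84 same-numbered pairs only 5 had deviations correlated over 0.1 (median -0.00492), and 9 of 24 arrays correlated best with their own number, so the numbers were not taken as pairs. With the replicate block the rise of *PRL* was 3.60 in WT and 3.45 in tim17-1, no call on *PRL* changed, and 19415 and 18954 probe sets were called against 19505 and 19086. Probe sets differing between genotypes at 0 h, 48 h S, 6 h SL and 24 h SL numbered 831, 280, 291 and 983. From the compared groups alone limma gave 39, 178, 0 (2165 at an unadjusted p under 0.05) and 4. Array weights gave 459, 4106 and 847 at the 3 earlier stages; at 6 h SL an offset of 1 gave 193 and none 180. With an array left out they reached 101 and 485 at 48 h S, 140 at 6 h SL and 647 at 24 h SL. Probe sets over the median alone gave 505 at 0 h and 649 at 24 h SL with fewer tested, and 9974, 10369 and 10324 in place of 16625 (WT stratification), 19505 and 19086. Differing changes numbered 610, 163 and 349 over the 3 steps and 781 in all. The compared groups alone gave 330, 62 (the last step) and 246 in all, array weights 1711 and 830 for the 2 light steps, and probe sets over the median 279, 137 and 405. With an array left out they ran from 397 to 933, from 63 to 303 and up to 557.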
